A study of Mus musculus with 10 samples.

Results

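Peroxisomes break down fatty acids that mitochondria handle poorly, and 36 genes for this oxidation and for building the organelle were followed in mouse liver. The genes were picked by name, with earlier results of these data known, and matched by identifier among 41388 genes in the count table. Of the 36, 21 encode oxidation enzymes, acyl-CoA transporters or carriers ("oxidation genes"), 13 encode peroxins that assemble or divide the organelle ("Pex genes"), and 2 encode membrane proteins of the Pxmp type. They lie on 17 chromosomes and none lies on X.

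The livers came from 10 mice aged 10 weeks of reciprocal crosses between BFMI (BFMI860-12/Hber), an inbred line with juvenile obesity, and B6N (C57BL/6NCrl), a lean strain. The group matBFMI holds 3 F1 males of a BFMI mother and a B6N father, and patBFMI holds 3 F1 males of a B6N mother and a BFMI father, each set from 3 mothers. The inbred animals were 1 female and 1 male of BFMI and 1 female and 1 male of B6N. F1 males received a high fat diet from weaning at day 21 to dissection at day 70. For the inbred animals the sample records name a standard breeding diet while the study's design text speaks of a high fat diet, and if the diets differed, diet and F1 status cannot be told apart. The question put to these samples was how the direction of the cross bears on gene expression in the liver of F1 males.

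Acyl-CoAs enter the peroxisome through ABC transporters of the D family and are shortened by an acyl-CoA oxidase, a bifunctional enzyme and a thiolase, after which carnitine esters or free CoA products leave the organelle. Branched-chain acids such as phytanic acid first pass through alpha-oxidation, and catalase removes the hydrogen peroxide made by the oxidases. Peroxins import the finished enzymes from the cytosol, insert membrane proteins and divide the organelle. In rodent liver several of the oxidation genes, and Pex11a among the Pex genes, are known targets of the fatty acid receptor PPARalpha.

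Libraries held 46988713 to 96023811 reads assigned to genes, and all 36 members had at least 111 reads in every library. Genes with at least 1 read numbered 32421 in patBFMI 1, against 22095 to 26694 in the other 5 F1 libraries. In the inbred libraries they numbered 29942 to 34572, with the most in the B6N female, the library of lowest depth. The column headers put matBFMI on lane 6 and patBFMI on lane 5, so that lane and cross cannot be told apart. The inbred libraries were on lanes 1 (the BFMI male) and 4 (the other 3), so lane and F1 status cannot be told apart either. Hepatocyte markers summed to between 71509.9 and 101795 CPM (reads per 1000000 assigned reads) in all 10 libraries, and none of the 10 markers was at 0. Summed Kupffer cell and macrophage markers (12 genes, none at 0) ranged from 257 to 282 CPM in matBFMI, 295 to 332 in patBFMI, 327 to 373 in BFMI and 519 to 554 in B6N. These are bulk samples, so fewer cells of a type and less RNA per cell cannot be told apart.

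The 300 bases around the RefSeq start site (250 before to 50 after, GRCm38.p6) were available for 28 of the 36 genes. They are shown for 4 oxidation genes: Ehhadh and Acaa1b, whose matBFMI and patBFMI libraries did not overlap, Acaa1a, the near copy of Acaa1b, and Cat, whose level was nearly equal. Capitals in the Cat window mark a match to the direct repeat AGGTCANAGGTCA, the textbook element of PPAR receptors, with at most 2 mismatches on either strand; windows all in lower case hold no such match.
Ehhadh (chr16:21787785-21788084, minus strand): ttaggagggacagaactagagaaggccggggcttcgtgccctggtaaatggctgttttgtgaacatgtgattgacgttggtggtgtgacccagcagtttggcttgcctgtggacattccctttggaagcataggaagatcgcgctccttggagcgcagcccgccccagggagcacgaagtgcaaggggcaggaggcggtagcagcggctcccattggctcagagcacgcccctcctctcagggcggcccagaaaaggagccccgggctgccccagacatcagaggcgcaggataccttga
Acaa1b (chr9:119157044-119157343, minus strand): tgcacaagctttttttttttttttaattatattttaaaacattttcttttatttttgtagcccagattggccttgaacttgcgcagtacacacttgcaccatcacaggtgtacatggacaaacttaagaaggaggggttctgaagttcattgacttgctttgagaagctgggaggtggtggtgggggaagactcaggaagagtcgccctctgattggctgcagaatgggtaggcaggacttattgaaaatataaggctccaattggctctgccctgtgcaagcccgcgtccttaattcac
Acaa1a (chr9:119341044-119341343, plus strand): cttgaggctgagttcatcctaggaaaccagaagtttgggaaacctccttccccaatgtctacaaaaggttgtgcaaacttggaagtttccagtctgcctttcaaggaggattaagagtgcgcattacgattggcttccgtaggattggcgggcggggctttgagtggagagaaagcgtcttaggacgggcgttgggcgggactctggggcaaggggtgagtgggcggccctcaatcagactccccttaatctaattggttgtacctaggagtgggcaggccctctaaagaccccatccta
Cat (chr2:103485104-103485403, minus strand): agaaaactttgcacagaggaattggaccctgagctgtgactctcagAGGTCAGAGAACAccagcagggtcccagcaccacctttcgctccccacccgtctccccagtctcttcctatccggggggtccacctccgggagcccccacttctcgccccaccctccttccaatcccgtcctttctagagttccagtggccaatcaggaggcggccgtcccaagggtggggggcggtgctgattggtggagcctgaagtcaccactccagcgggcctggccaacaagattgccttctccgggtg
Such a match was found for 2 of the 28 genes (7.14%), Cat and, at 1 of its start sites, Acox2, against 4.4% of 27018 genes in the RefSeq table, each counted once over its start sites. With at most 1 mismatch there was none among the 28, against 0.644% of all genes. The Acaa1a and Acaa1b windows shared 49.4% of 322 aligned positions, although their transcripts were 96.6% identical over 1428 bases. A match is a run of letters and not a shown binding site. Sequence outside the 300 bases was not scanned, so the lack of a match holds for the window only. The windows of Abcd2, Abcd4, Hsd17b4, Amacr, Crat, Pex2, Pex19 and Pxmp2 were not scanned.

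The median oxidation gene was expressed far above the median Pex gene, though the 2 classes overlapped. On the authors' RPKM scale, which corrects for gene length, the mean over 10 libraries reached 1111 for Cat, 817 for Scp2 and 749 for Phyh, and 11 of the 21 oxidation genes lay above 100. Within this class Acox3 (2.37), an oxidase of branched-chain acyl-CoAs, and Abcd4 (2.65), a family member known to act in lysosomal cobalamin transport, were lowest. In each class 5 genes lay under 10, and those of the oxidation class include Abcd2 (6.68), Crat (7.68) and Nudt19 (8.23). No Pex gene reached 100: the mean was highest for Pex5 (31.0), the import receptor for most matrix enzymes, and lowest for Pex10 (1.29). The median gene was at 104 RPKM among the 21 oxidation genes and at 16.4 among the 13 Pex genes.

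In matBFMI livers compared with patBFMI livers, 1 of the 36 genes passed the test and 10 had separate libraries upward. Abcd2, a transporter of very long-chain acyl-CoAs, was 2.17-fold higher in matBFMI. The largest differences that did not pass were those of Acaa1b, Crat and Ehhadh, at 1.87-fold, 1.73-fold and 1.60-fold. Scp2, Cat and Phyh, the genes with the most abundant transcripts, lay at 0.98-fold, 1.02-fold and 0.87-fold. The test was the quasi-likelihood test of edgeR on raw counts over 16797 genes, with p adjusted by Benjamini-Hochberg and a threshold of 0.05. At this threshold 0.0953% of all genes tested were higher and 0.0476% were lower. At an unadjusted p under 0.05, 8 members were higher and 1 was lower (22.2% and 2.78%), against 5.14% and 4.7% of all genes. The 3 matBFMI libraries all lay above the 3 of patBFMI for 10 members (27.8%) and all below for 1, against 8.25% and 7.07% of all genes. Of these 10 members, Pex3 and Pex14 overlapped on the RPKM scale. The p-values measure the spread between these animals only. With DESeq2 in place of edgeR 6 members were higher, against 1.05% of all genes, and with no filter on low counts 7 were, against 1.21%. Without matBFMI 3 or without patBFMI 3 no member passed, and 6 and 9 of all genes were higher.

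**Figure D1:**
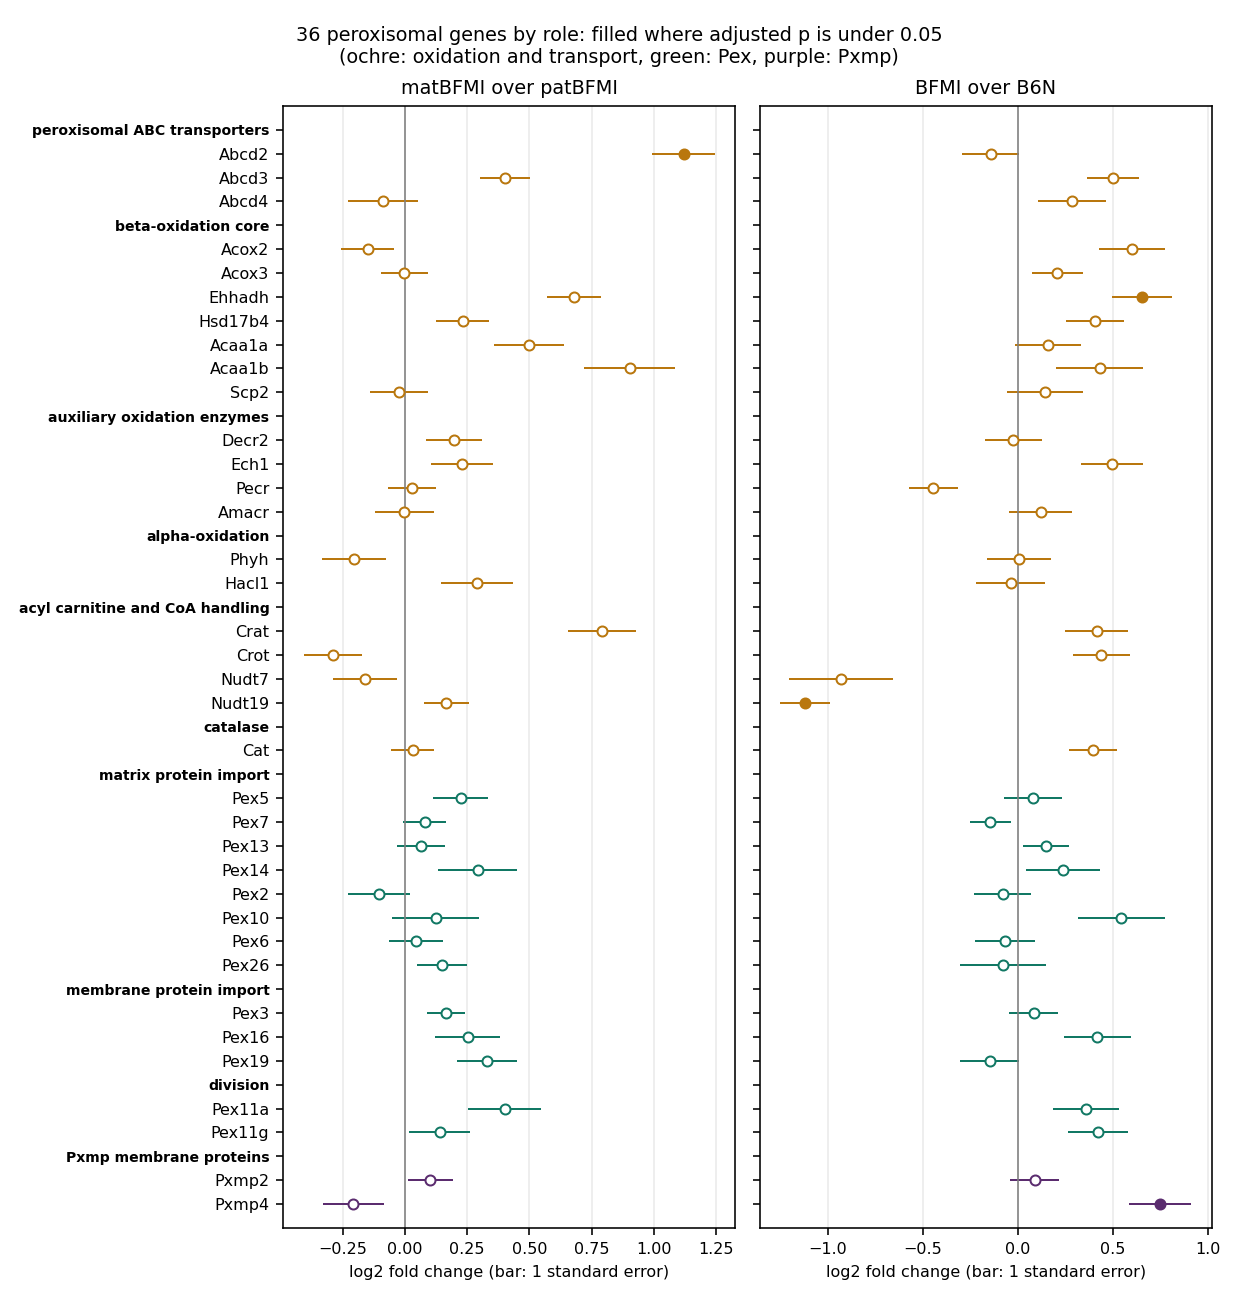
Log2 fold changes of the 36 genes by role with 1 standard error, matBFMI over patBFMI on the left (edgeR, 6 libraries) and BFMI over B6N on the right (edgeR, 10 libraries). Filled points have an adjusted p under 0.05: Abcd2 on the left, and Ehhadh, Nudt19 and Pxmp4 on the right.

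Among the transporters, Abcd2 (chr15:91145871-91191799, GRCm38, minus strand) was at 30.3, 22.9 and 27.0 CPM (from here on after TMM scaling, a correction for library composition) in the 3 matBFMI libraries, against 12.8, 10.7 and 13.01 CPM in the 3 patBFMI libraries. The groups did not overlap, with a log2 fold change of 1.12 ± 0.13 (SE) and an edgeR adjusted p of 0.0209. Leaving out matBFMI 3 or patBFMI 3 raised the adjusted p to 0.139 and 0.0623, with log2 fold changes of 1.11 and 1.16. Limma gave a log2 fold change of 0.85 and an adjusted p of 0.615 on log2(RPKM + 1), a scale that understates changes of genes at low RPKM. On log2(RPKM + 0.1) limma gave 1.1 and 0.508, so the call was lost there too. Abcd3, which carries branched-chain and dicarboxylic acyl-CoAs, had 1060, 1009 and 1049 CPM in matBFMI, against 791, 845 and 700 CPM in patBFMI. All matBFMI libraries were higher, but the log2 fold change of 0.40 ± 0.10 had an edgeR adjusted p of 0.217 (unadjusted 0.003). Abcd4 did not pass either, at -0.09 ± 0.14.

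In the core pathway, Ehhadh, Hsd17b4, Acaa1a and Acaa1b had separate libraries, all upward, while Acox2, Acox3 and Scp2 overlapped. Ehhadh (chr16:21761287-21787807, minus strand), the L-bifunctional enzyme, was at 569, 544 and 603 CPM in matBFMI, against 320, 405 and 338 CPM in patBFMI. Its log2 fold change was 0.68 ± 0.11, and the edgeR adjusted p of 0.0668 just missed the threshold, which it passed under 5 of 17 alternatives. Acaa1b, a thiolase, had 1002, 840.4 and 1158 CPM in matBFMI, against 548, 644 and 398 CPM in patBFMI. The highest patBFMI library lay well below the lowest matBFMI library, with a log2 fold change of 0.90 ± 0.18 and an edgeR adjusted p of 0.135. Acaa1a, the second thiolase, had 242, 209 and 284 CPM in matBFMI, against 174, 191 and 150.0 CPM in patBFMI. The groups were separate here too, at 0.50 ± 0.14 and an edgeR adjusted p of 0.269.

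Reads of the thiolase pair may be shared between them, since the transcripts are near-identical and the counting kept or split such reads in a way not given in the sources used here. Acaa1a also overlaps exons of Myd88, and Acaa1b those of Dlec1, on the other strand. The sum of Acaa1a and Acaa1b reads gave a log2 fold change of 0.81 ± 0.17 in matBFMI over patBFMI, with an edgeR adjusted p of 0.138. The ratio of Acaa1a to Acaa1b reads was 0.241, 0.249 and 0.245 in matBFMI, against 0.317, 0.296 and 0.377 in patBFMI. The highest matBFMI ratio thus lay under the lowest ratio of patBFMI. In the inbred strains it was 0.263 and 0.257 in the BFMI female and male, against 0.331 and 0.297 in the B6N female and male.

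Hsd17b4, the D-bifunctional enzyme, did not pass at 0.23 ± 0.11, although its libraries were separate. The oxidases Acox2 (-0.15 ± 0.11) and Acox3 (0.00 ± 0.10) had overlapping groups. Scp2, which encodes a sterol carrier and a thiolase of branched-chain substrates, was at 3631, 3327 and 3062 CPM in matBFMI, against 3387, 3807 and 2911 CPM in patBFMI. These ranges overlap almost fully, at -0.03 ± 0.12.

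The enzymes that prepare unsaturated or branched acyl-CoAs showed no difference past the test. Ech1, a dienoyl-CoA isomerase and the highest of this role, was at 272, 225 and 268 CPM in matBFMI, against 207, 245 and 194 CPM in patBFMI. The groups overlap, with a log2 fold change of 0.23 ± 0.12. Decr2, a dienoyl-CoA reductase (0.20 ± 0.11), Pecr, an enoyl-CoA reductase (0.03 ± 0.10), and Amacr, a racemase of branched acyl-CoAs (0.00 ± 0.12), overlapped as well. In alpha-oxidation, Phyh, the phytanoyl-CoA hydroxylase, had 1649, 1418 and 1271 CPM in matBFMI, against 1826, 1654 and 1467 CPM in patBFMI (-0.20 ± 0.13). Hacl1, the lyase of the same pathway, lay on the other side of 0 at 0.29 ± 0.14. Neither passed, and counts of Hacl1 are uncertain because Btd overlaps its exons on the other strand.

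The carnitine transferases had estimates of opposite sign, and neither passed. Crat, the acetyltransferase, was at 42.2, 46.3 and 55.0 CPM in matBFMI, against 29.0, 30.2 and 22.9 CPM in patBFMI. The groups were separate with a log2 fold change of 0.79 ± 0.14, and the edgeR adjusted p was 0.0871. Crat shares exon sequence with Dolpp1 on the other strand. Crot, the octanoyltransferase, had 538, 555 and 444 CPM in matBFMI, against 597, 681 and 584 CPM in patBFMI. It was the only member with all matBFMI libraries below all patBFMI libraries, at -0.29 ± 0.12, with an edgeR adjusted p of 0.457 (unadjusted 0.0359). The CoA diphosphatase Nudt19 had 21.8, 24.1 and 24.8 CPM in matBFMI, against 19.9, 22.9 and 19.7 CPM in patBFMI, which overlap. Nudt7, the other diphosphatase, did not pass at -0.16 ± 0.13. Catalase was nearly level: Cat had 3249, 3239 and 3150 CPM in matBFMI, against 2916, 3435 and 2999 CPM in patBFMI, with a log2 fold change of 0.03 ± 0.09.

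None of the 13 Pex genes passed the edgeR test in the F1 males (0 with DESeq2, 1 with no filter on low counts, 2 at an unadjusted p under 0.05), but 12 of the 13 estimates were positive (10 without matBFMI 3). Over all genes tested, 48.9% were positive. Pex11a, which elongates peroxisomes before division, was at 44.5, 36.6 and 44.8 CPM in matBFMI, against 31.2, 37.9 and 25.6 CPM in patBFMI. The groups overlap through matBFMI 2 and patBFMI 2, with the largest Pex log2 fold change, 0.40 ± 0.15, and an edgeR adjusted p of 0.41. Pex19, the cytosolic chaperone of membrane proteins, had 82.1, 85.0 and 104 CPM in matBFMI, against 69.0, 80.2 and 64.6 CPM in patBFMI. Its libraries were separate by a narrow gap, at 0.33 ± 0.12 and an edgeR adjusted p of 0.411. Pex3, the membrane receptor for Pex19, had 26.5, 25.7 and 27.8 CPM in matBFMI, against 23.9, 24.2 and 22.6 CPM in patBFMI. The gap was again narrow, with 0.16 ± 0.08 and an edgeR adjusted p of 0.534. On the RPKM scale the Pex3 groups overlapped, at 5.10 to 5.56 in matBFMI against 4.57 to 5.48 in patBFMI. Adat2 overlaps exons of Pex3 on the other strand. Pex5 was at 135, 141 and 161 CPM in matBFMI, against 116, 137 and 119 CPM in patBFMI. The groups overlap through patBFMI 2, and the edgeR adjusted p was 0.553 at 0.22 ± 0.11.

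No other Pex gene passed either. Pex14 of the docking complex (0.29 ± 0.16) was at 15.4, 16.1 and 24.1 CPM in matBFMI, against 15.01, 14.9 and 14.96 CPM in patBFMI. The gap between the groups was small beside the distance of matBFMI 3. On the RPKM scale the groups of Pex14 overlapped, at 2.30 to 3.48 in matBFMI against 2.00 to 2.76 in patBFMI. Its partner Pex13 (0.06 ± 0.10), the second import receptor Pex7 (0.08 ± 0.09), the ubiquitin ligase subunits Pex2 (-0.11 ± 0.13) and Pex10 (0.12 ± 0.17), the export ATPase Pex6 (0.04 ± 0.11) and its anchor Pex26 (0.15 ± 0.10) all had overlapping groups. Pex13 overlaps exons of Pus10 on the other strand, so its counts are uncertain. Pex2 was the only Pex gene with a negative estimate. Pex16 (0.25 ± 0.13), which acts with Pex3, and Pex11g (0.14 ± 0.12), a division factor, were positive and overlapped. Pxmp2, a membrane channel, was at 0.10 ± 0.09. Pxmp4 had 59.2, 60.4 and 62.6 CPM in matBFMI, against 65.8, 83.5 and 59.3 CPM in patBFMI, at -0.21 ± 0.12, and did not pass.

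As classes, oxidation genes spread more widely than Pex genes. The median log2 fold change in matBFMI over patBFMI was 0.17 over the 21 oxidation genes and 0.15 over the 13 Pex genes, against -0.01 over all genes tested. Without matBFMI 3 the Pex median was 0.07 and the oxidation median 0.12. Oxidation genes ran between -0.29 and 1.12, with 13 positive and 8 negative, and Pex genes between -0.11 and 0.40. On the RPKM scale, 14 of 21 and 11 of 13 were positive. Beside this, all 12 Kupffer cell and macrophage markers had negative log2 fold changes in matBFMI (median -0.30, 9 at an unadjusted p under 0.05, 0 past the edgeR threshold), and 10 hepatocyte markers had a median of -0.03. Their part in the peroxisomal differences was not tested.

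Relative to each gene's mean over 10 libraries, the median oxidation gene stood at 0.15, 0.15 and 0.15 (log2) in matBFMI, against -0.10, 0.03 and -0.23 in patBFMI. For Pex genes the medians were 0.06, 0.09 and 0.38 in matBFMI, against -0.07, 0.01 and -0.10 in patBFMI. By these medians the groups did not overlap for either class, patBFMI 2 came nearest to matBFMI, and matBFMI 3 stood high for Pex genes only. Summed CPM, in which abundant transcripts weigh most, did overlap, at 13656 to 14555 in matBFMI against 11744 to 14443 in patBFMI for oxidation genes. For Pex genes the sums were 649 to 741 CPM in matBFMI, against 572 to 653 CPM in patBFMI, again with patBFMI 2 inside the matBFMI range. The B6N female was the lowest library for both classes, at -0.42 for oxidation and -0.34 for Pex genes, whereas the BFMI female and male and the B6N male lay between -0.08 and 0.09.

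**Figure D2:**
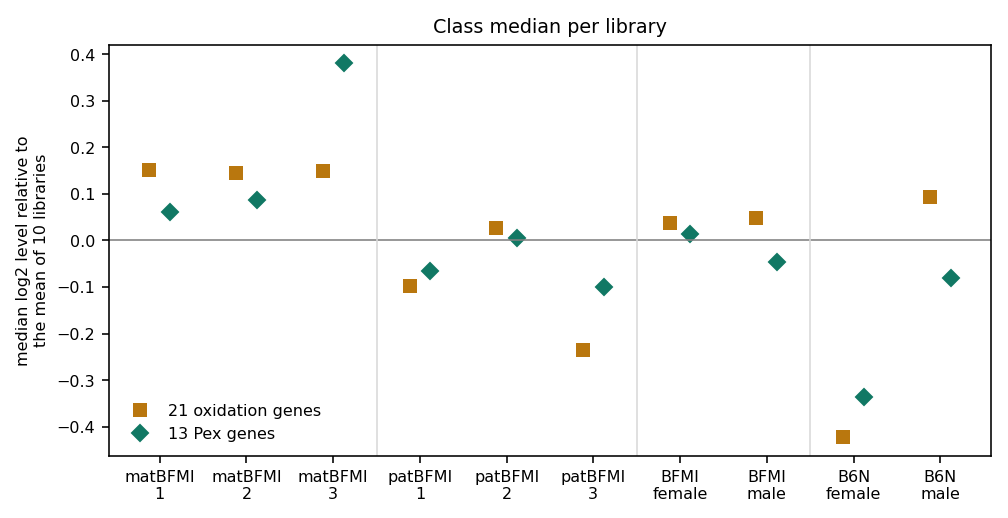
Median log2 level of the 21 oxidation genes (squares) and the 13 Pex genes (diamonds) in each library, relative to each gene's mean over the 10 libraries. All matBFMI libraries lie above all patBFMI libraries in both classes, and the B6N female is lowest, at -0.42 and -0.34.

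Obese BFMI livers compared with lean B6N livers differed in 3 of the 36 genes: Ehhadh (1.57-fold) and Pxmp4 (1.68-fold) were higher and Nudt19 was lower (0.46-fold). Each strain gave 1 female and 1 male, so edgeR was fitted on all 10 libraries with a term for sex, and most of the spread comes from the F1 males. Of 19974 genes tested 3.61% were higher and 3.05% lower in BFMI. At an unadjusted p under 0.05, 12 members were higher and 3 lower (33.3% and 8.33%), against 9.72% and 8.56% of all genes. Positive estimates were found for 25 of 36 members, against 45.4% of all genes. The median was 0.21 over oxidation genes and 0.08 over Pex genes, against -0.04 over all genes. In the males alone these medians were 0.051 and -0.13, and without the B6N female they were 0.046 and -0.13. Of the 12 Kupffer cell and macrophage markers 6 were lower in BFMI (median -0.63), and their part was not tested.

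Nudt19 (chr7:35547185-35556304, minus strand), which hydrolyses CoA, was at 14.5 and 11.4 CPM in the BFMI female and male, against 28.0 and 28.0 CPM in the B6N female and male. The BFMI animals of both sexes lay far below, with a log2 fold change of -1.12 ± 0.13 and an edgeR adjusted p of 0.000628. The call held under all 17 alternatives, with adjusted p up to 0.0279. The 6 F1 libraries, at 19.7 to 24.8 CPM, lay between the strains. Nudt7, the other CoA diphosphatase, named after its values were seen, had 335 and 310.4 CPM in the BFMI female and male, against 403 and 937 CPM in the B6N female and male. It did not pass (-0.93 ± 0.27, edgeR adjusted p 0.079) but was lower under 7 of 17 alternatives, among them DESeq2, limma-voom, inbred libraries alone and males alone, and the B6N animals differed more from each other than the females did between strains.

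Ehhadh was at 592 and 505 CPM in the BFMI female and male, against 433 and 280.2 CPM in the B6N female and male, with a log2 fold change of 0.65 ± 0.16 and an edgeR adjusted p of 0.0358. BFMI was higher within each sex, and the call was lost in 8 of 17 alternatives, among them inbred libraries alone (adjusted p 0.0658), males alone (0.0531), and the removal of any inbred library (0.0607 to 0.345). The level in matBFMI (544 to 603 CPM) overlapped that of BFMI, and the level in patBFMI (320 to 405 CPM) lay within that of B6N. Pxmp4 (chr2:154585758-154603708, minus strand), a peroxisomal membrane protein, had 89.3 and 124 CPM in the BFMI female and male, against 59.8 and 65.9 CPM in the B6N female and male. Its log2 fold change was 0.75 ± 0.16 with an edgeR adjusted p of 0.0221, which rose to 0.0629 to 0.269 when any inbred library was left out. Both F1 groups were near B6N, at 59.2 to 83.5 CPM.

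Among the oxidation genes that did not pass, Abcd3 had 936 and 904 CPM in the BFMI female and male, against 605 and 699.7 CPM in the B6N female and male (0.50 ± 0.14, edgeR adjusted p 0.0576). Pecr lay the other way, at 90.4 and 76.3 CPM in the BFMI female and male, against 115 and 111 CPM in the B6N female and male (-0.45 ± 0.13, edgeR adjusted p 0.0731), and was lower under 3 of 17 alternatives, DESeq2 and limma-voom among them. Both BFMI animals lay above both B6N animals for 15 of the 36 members and below for 3, against 20.8% and 23.0% of all genes. Those above include Acox2 (0.60 ± 0.17), Ech1 (0.50 ± 0.16), Cat (0.40 ± 0.13) and Crat (0.41 ± 0.17), and those below are Nudt19, Nudt7 and Pecr. All 7 core genes had positive estimates, with a median of 0.40. Between the males, however, Scp2 was lower in BFMI (3128 against 3842 CPM) and Acaa1a was nearly level (185 against 183 CPM). The other core genes were higher in the BFMI male. Of the 21 oxidation genes 6 had negative estimates, Abcd2 among them with overlapping strains (-0.14 ± 0.15). The strain difference in males minus that in females was tested in a separate edgeR fit with 6 groups. It passed for 0 of the 36 members (5 at an unadjusted p under 0.05, smallest adjusted p 0.274), against 0.03% and 7.87% of all genes. Its estimate was positive only for Ehhadh, Hacl1 and Pxmp4 and negative for every other member, down to -1.32 (log2) for Nudt7. The share of negative estimates over all genes is not given here.

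**Figure D3:**
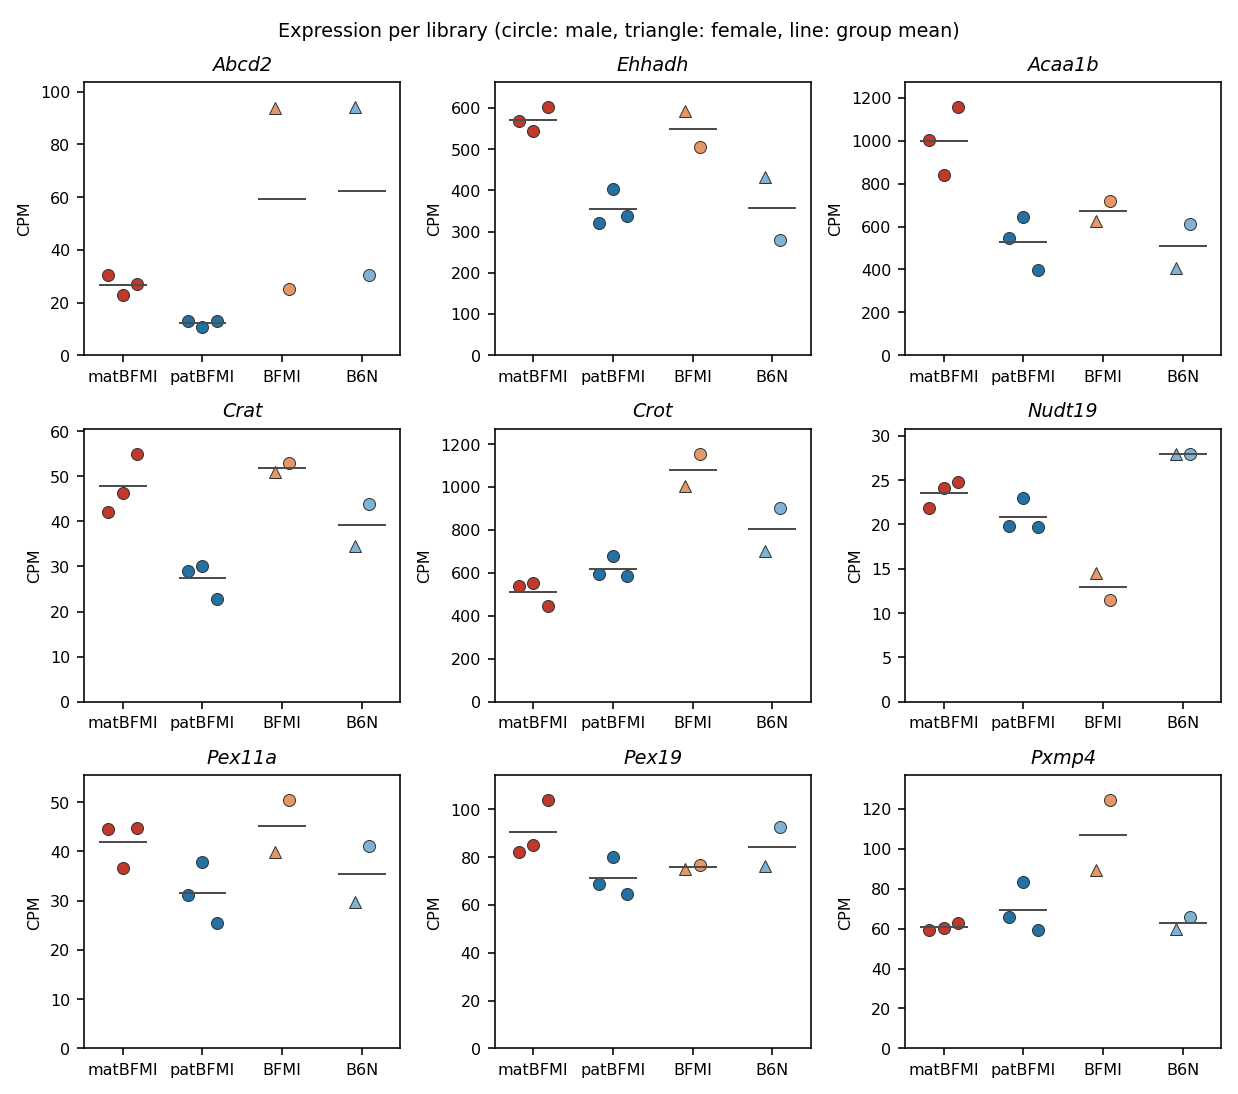
CPM of 9 genes in each library, with circles for males, triangles for females and lines for group means. Abcd2, Ehhadh, Acaa1b and Crat show matBFMI above patBFMI without overlap, Crot lies lowest in the F1 males, and Nudt19 lies lowest in BFMI at 14.5 and 11.4 CPM.

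F1 males compared with the mean of the inbred strains, with sex in the model, were lower for Crot and Abcd2 (2 of 36). Across all genes 1.14% were higher and 0.916% lower. Crot (chr5:8966033-8997324, minus strand) was at 444 to 681 CPM in the 6 F1 males, against 1007 and 1156 CPM in the BFMI female and male and 702 and 905 CPM in the B6N female and male. No F1 library reached any inbred library, and the log2 fold change was -0.86 ± 0.12 with an edgeR adjusted p of 0.0107. Abcd2 was at 10.7 to 30.3 CPM in F1 males, against 25.0 and 30.4 CPM in the BFMI and B6N males, with a log2 fold change of -0.61 ± 0.12 and an edgeR adjusted p of 0.033. The matBFMI libraries overlapped the inbred males, and patBFMI lay lowest of all. At an unadjusted p under 0.05, 6 members were higher and 5 lower, against 9.02% and 7.61% of all genes. The medians of 0.13 for oxidation and 0.08 for Pex genes turned to -0.18 and -0.10 without the BFMI male, the Pex median was 0.0002 without matBFMI 3, and neither call held without the BFMI male or without the B6N male. The call of Abcd2 was also lost without matBFMI 2, matBFMI 3 or patBFMI 3 (adjusted p 0.0566 to 0.0657), and 5 of the 12 Kupffer cell and macrophage markers were lower in F1, whose part was not tested.

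Inbred females compared with inbred males differed in 2 of 36 genes, with Abcd2 higher (3.41-fold) and Scp2 lower (0.43-fold). Of all genes 0.31% were higher and 0.245% lower in females, and at an unadjusted p under 0.05 there were 4 higher and 5 lower members of 36, against 3.83% and 3.96% of all genes. Abcd2 was at 93.9 and 94.2 CPM in the BFMI and B6N females, against 25.0 and 30.4 CPM in the BFMI and B6N males. The sexes were widely separate in each strain, at 1.77 ± 0.16 (log2) and an edgeR adjusted p of 0.000803, and the call held under all 16 alternatives. Hacl1 had a log2 fold change of 0.77 ± 0.18 without passing (edgeR adjusted p 0.138).

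Scp2 (chr4:108043839-108144998, minus strand) was at 1815 and 1214 CPM in the BFMI and B6N females, against 3128 and 3842 CPM in the BFMI and B6N males. The log2 fold change was -1.22 ± 0.20 with an edgeR adjusted p of 0.0325, and without the B6N male or female the adjusted p rose to 0.283 and 0.289, and without any 1 of the matBFMI libraries to between 0.0609 and 0.0744. The transcript of Scp2 matches that of Scp2-ps2 by 99.6% over 1371 bases, so that their reads cannot be parted with certainty. The sum of both gave a log2 fold change of -0.98 ± 0.19 and an adjusted p of 0.0655. The ratio of Scp2-ps2 to Scp2 reads was 0.636 and 0.588 in the BFMI and B6N females, against 0.389 and 0.333 in the BFMI and B6N males. F1 males, at 0.349 to 0.439, lay near the inbred males.

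**Figure D4:**
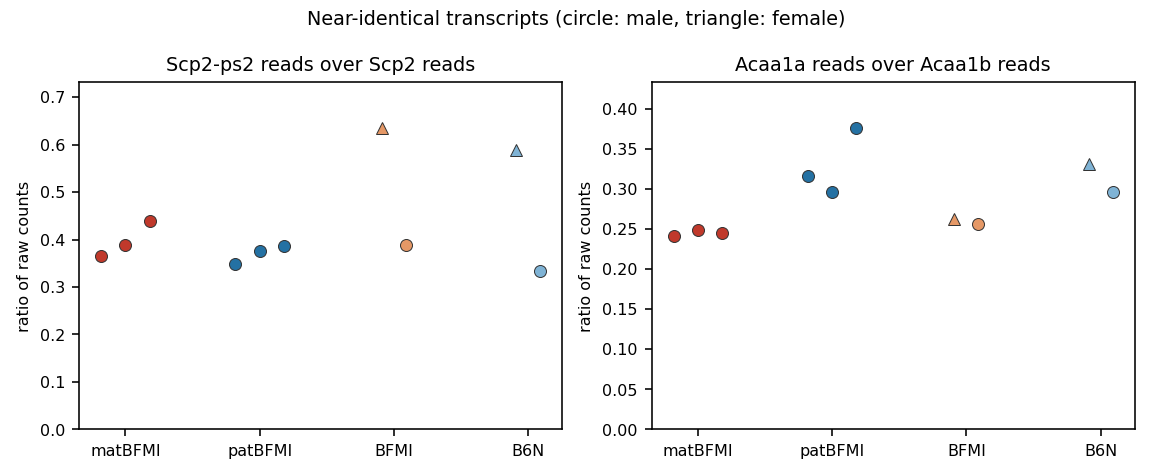
Ratio of raw counts for the near-identical pairs Scp2-ps2 and Scp2 (left) and Acaa1a and Acaa1b (right) in each library, with circles for males and triangles for females. The first ratio is highest in the females at 0.636 and 0.588, and the second is lower in matBFMI (0.241 to 0.249) than in patBFMI (0.296 to 0.377).

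A list of 32 other peroxisomal genes, of which 31 were found, gives the setting of these results. In matBFMI against patBFMI 2 of 28 tested were higher (7.14%) and 0 lower, against 0.0953% and 0.0476% of all genes. These were the acyl-CoA thioesterases Acot3 (log2 fold change 4.53, edgeR adjusted p 0.0414) and Acot4 (1.65, 0.0452). The median was 0.07, and how these calls depend on single libraries is not reported here. In BFMI against B6N 3 of 30 were higher (10.0%) and 0 lower, against 3.61% and 3.05% of all genes. The 3 were the thioesterase Acot6 (1.44), the reductase Dhrs4 (0.74) and the protease Lonp2 (0.64), and the median was 0.18. In females against males 2 of 30 were higher (6.67%) and 0 lower, against 0.31% and 0.245% of all genes. They were Hao2, a hydroxyacid oxidase, and Acot3, at 3.72 and 3.47 (log2).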

How the data were processed

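For each Ensembl gene, a raw count of reads and an RPKM value computed after quantile normalization were deposited by the authors, with 1 column per animal. Per the study's methods, reads were trimmed, aligned to GRCm38, cleared of duplicates and counted in union mode against Ensembl release 81. The methods name BWA, while the notes of the submitters on processing list TopHat2 2.10 and Bowtie2 2.2.6, beside Picard 1.99 and Trimmomatic 0.32; the molecule field says polyA RNA and the protocol RiboZero. Whether counting used strand is not given in the sources used here, and duplicate removal can lower the highest counts. The 3 columns without a sample record were not used.

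Identifiers were matched to GENCODE M21. Counts were scaled by TMM and tested with edgeR 4.0.16 in R 4.3.3 (quasi-likelihood, Benjamini-Hochberg over all genes tested, threshold 0.05). F1 males were fitted alone, keeping genes with 10 or more counts in 3 libraries. The other comparisons came from a fit of all 10 libraries, keeping genes with 10 or more counts in 2. The biological coefficient of variation was 15.9% in F1 males and 17.7% in all libraries. CPM values use 1 TMM scaling of all 10 libraries. Alternatives used DESeq2 1.42.0, limma 3.58.1, other scalings and filters, RPKM with pseudocounts of 1 and 0.1, and each library left out. Transcripts were compared with BLAST 2.17.0, and figures were drawn with Python 3.11.15 and matplotlib 3.10.9. The fits were tested on simulated data.

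Values per library are given for members past the threshold in the F1 or strain comparison, the 6 oxidation and 4 Pex genes with the smallest F1 p, and the highest gene of each role; other values per library were chosen after they were seen. The members and lists were chosen with earlier results of these data known.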

Additional observations from a re-analysis of the deposited data

How the results depend on the processing

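In matBFMI against patBFMI 1 member passed. The count was 3 with library size only, 7 with no filter on low counts and 6 with DESeq2. It was 0 with limma on log2(RPKM + 1), on log2(RPKM + 0.1) and on log2(RPKM + 1) without a filter. With the study's kind of t test, here with p adjusted over 16797 genes, it was also 0. The study itself applied no adjustment. By t tests at an unadjusted p under 0.05, and with a minimum size of difference, it listed Abcd2 and Crat as higher. Its differences were ratios of mean log-transformed RPKM, a measure unlike the fold changes given here. With 1 library left out the count was 0 to 2. Over all genes, 45 were higher and 11 lower with library size only, against 16 and 8 in the main fit. With the replicate number as a block the count of members was 2 (Abcd2 and Ehhadh). Over all genes 89 were then higher and 86 lower. Deviations from the group mean correlated at 0.3, -0.058 and 0.104 between same-numbered libraries, against -0.304 to 0.234 between the others. These few correlations cannot decide whether the numbers pair the animals. In BFMI against B6N, where 3 passed, the count was 6 with library size only, 5 with no filter, 10 with DESeq2, 7 with limma-voom, and 2 to 5 with 1 library left out. In F1 against the inbred mean, where 2 passed, it was 4 with no filter, 4 with DESeq2 and 0 to 3 with 1 library left out. In females against males, where 2 passed, it was 4 with no filter, 1 with the reads of near-identical copies summed (chosen after seeing the data), and 1 to 3 with 1 library left out. Calls over all genes moved too. In BFMI against B6N they were 722 higher and 610 lower in the main fit of 19974 genes. They were 747 and 536 with library size only, and 1215 and 715 of 38778 with no filter. DESeq2 gave 923 and 748, and limma-voom 892 and 780. In F1 against the inbred mean they were 227 and 183, then 612 and 798 with no filter and 555 and 316 with DESeq2. In females against males they were 62 and 49, then 246 and 336 with no filter. Males alone gave strain medians of 0.051 for oxidation and -0.13 for Pex genes. With 1 library left out the median of oxidation genes ran between 0.12 and 0.23 (matBFMI against patBFMI), 0.046 and 0.47 (BFMI against B6N), -0.18 and 0.29 (F1 against the inbred mean) and -0.39 and -0.017 (females against males), and that of Pex genes between 0.07 and 0.22, -0.13 and 0.35, -0.10 and 0.27, and -0.30 and 0.17. The scale log2(RPKM + 0.1) put the median of all genes at a log2 fold change of -0.12 in matBFMI against patBFMI, and no filter on low counts put it at -0.19 in F1 males against the mean of the inbred strains. The strain estimate of Abcd2, never past the threshold, ran between -0.29 and 0.024 with 1 library left out, the highest without the BFMI male. The cause of these changes was not tested. Of 338 gene-level alternatives 290 kept direction and side of the threshold, but these include results that stayed short of it throughout. Of the main calls, Abcd2 kept 11 of 17 in matBFMI against patBFMI. In BFMI against B6N, Nudt19 kept 17, Pxmp4 12 and Ehhadh 9 of 17. In F1 against the inbred mean, Crot kept 14 and Abcd2 11 of 16. In females against males, Abcd2 kept 16 of 16 and Scp2 11 of 17. The inbred groups hold 1 animal per sex and strain, so their spread rests on the F1 males.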
